A study of Saccharomyces cerevisiae with 37 samples.

Results

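The ATG genes encode most of the dedicated autophagy machinery of budding yeast. They were taken as every gene whose symbol in the platform annotation is ATG followed by a number, with the brightest probe set kept per gene. This gave 34 genes, each with 1 probe set, of 5449 genes on the array. Averaged over the 28 arrays of the first 30 min, 15 of them lay above the expression filter of 11.04 (log2), which is the 30th percentile of all probe sets. The other 19 were dim and are described but stand outside the main tests. ATG42, ATG44 and ATG45, which are symbols of the RefSeq gene table but not of the platform annotation, were not analysed here.

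Autophagy delivers cytoplasm to the vacuole, the degradative compartment of yeast, inside a double membrane that grows around its cargo. The Atg1 kinase complex starts the process, Atg9 vesicles and a phosphatidylinositol 3-kinase supply membrane and its marks, and 2 ubiquitin-like conjugation reactions attach Atg8 to lipid on that membrane. Receptors that bind Atg8 pick out particular cargo, such as the vacuolar aminopeptidase Ape1, mitochondria, peroxisomes or parts of the endoplasmic reticulum and nucleus. The pathway is best known from nitrogen starvation, which raises many of its transcripts. In growing cells a constitutive branch, the cytoplasm-to-vacuole targeting (Cvt) pathway, carries Ape1 to the vacuole.

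Transcripts were measured on 37 Affymetrix Yeast Genome 2.0 arrays of 4 cultures of Saccharomyces cerevisiae strain Y262, whose RNA polymerase II is temperature-sensitive. All 4 grew in rich medium (YPD) to mid-log phase at 26 °C, and at time 0 an equal volume of medium at 49 °C brought them to 37 °C to stop transcription. Reference 1 (10 arrays) and reference 2 (7 arrays) received no stress, the oxidative stress culture (10 arrays) was given 0.3 mM hydrogen peroxide 25 min ahead of the shift, and the DNA damage culture (10 arrays) was given 0.1% methyl methanesulfonate (MMS), an alkylating agent, 40 min ahead of it. The pretreatment times are those the labels give, read in the order in which they name the stresses. Time 0 had 2 technical arrays per culture and 5, 10, 15, 20 and 30 min had 1 each, with 40, 50 and 60 min used in all but reference 2. The culture is the replicate, so the 2 references gave the only spread between cultures, each stressed culture was assumed to vary like them, and the number of cultures limits every value's precision. All 4 cultures, references included, met the heat shift, so nothing after time 0 is free of it.

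The median tested gene stood at 13.03 and 12.86 (log2) at time 0 in references 1 and 2, at 13.33 in the oxidative stress culture and at 12.89 in the DNA damage culture. Every level difference is therefore printed after subtracting that of the median gene, which was 0.29 for oxidative stress against the references, −0.15 for DNA damage against them and 0.49 between the stresses. The limma tests used the values as deposited, so each p belongs to the printed difference plus that shift. The oxidative stress culture stood apart in its 5.8S ribosomal RNA probe set, at a mean of −1.64 relative to the median probe set against 0.068 to 0.64 in the other 3 cultures. All results for oxidative stress rest on this culture, and the part of the offset in them was not tested. Genes checked as marks of the stresses told them apart to differing degrees. The sulfiredoxin gene SRX1 stood above the references by 5.52 under oxidative stress and by 4.90 under DNA damage. The alkylation response gene DDI3 stood at −0.21 and 4.39, and MAG1 at 1.41 in both. In the same order TSA2 stood at 5.09 and 3.18, CTT1 at 3.08 and 0.12, and HSP12 at 1.36 and −0.65.

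Under oxidative stress, 5 of the 15 tested ATG genes were higher at time 0 than in the references: ATG8, ATG41, ATG7, ATG3 and ATG19. None of the 15 was lower. An unadjusted p under 0.05 by limma was found for 8 of the 15 and for 916 of all 3899 genes tested. Over all 3899 genes tested, 11.7% were called higher and 0.769% lower in this comparison. ATG7, which was called, and ATG20 averaged below the filter over the reference arrays and passed it through stressed arrays. The counts and medians of the 15 include both, so no share called is read from them. Under DNA damage 1 of the 15, ATG41, was higher, against 2.85% of all genes tested, and 0 were lower, against 3.15%. There 4 of the 15 had an unadjusted p under 0.05 by limma, as had 705 of all 3899 genes tested. The median difference of the 15 was 0.31 (log2) under oxidative stress and 0.36 under DNA damage, where the median of all genes tested is 0.

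These calls depend on how arrays are scaled and on each time 0 array. With either set of time 0 arrays left out, 1 of the 15 was called under oxidative stress, ATG8, and 0 under DNA damage. With every array centred on its own median, 1 of the 15 was called higher under oxidative stress, ATG8, where 3.9% of all genes tested were (152 higher and 40 lower, against 458 and 30 on values as deposited). On centred arrays 0 of the 15 were called under DNA damage, against 2.26% of all genes. These were 58 higher and 30 lower, where values as deposited gave 111 and 123. An unadjusted p under 0.05 by limma was found there for 5 of the 15, and all genes were not counted at that threshold. The standard error of a level difference lay between 0.287 and 0.293 for all 15 members. It came almost wholly from the spread pooled over all genes tested, so it says little of a member's own spread between the references. Reference 1 minus reference 2, relative to the median gene, ran from −0.68 to 0.96 over the 15.

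**Figure D1:**
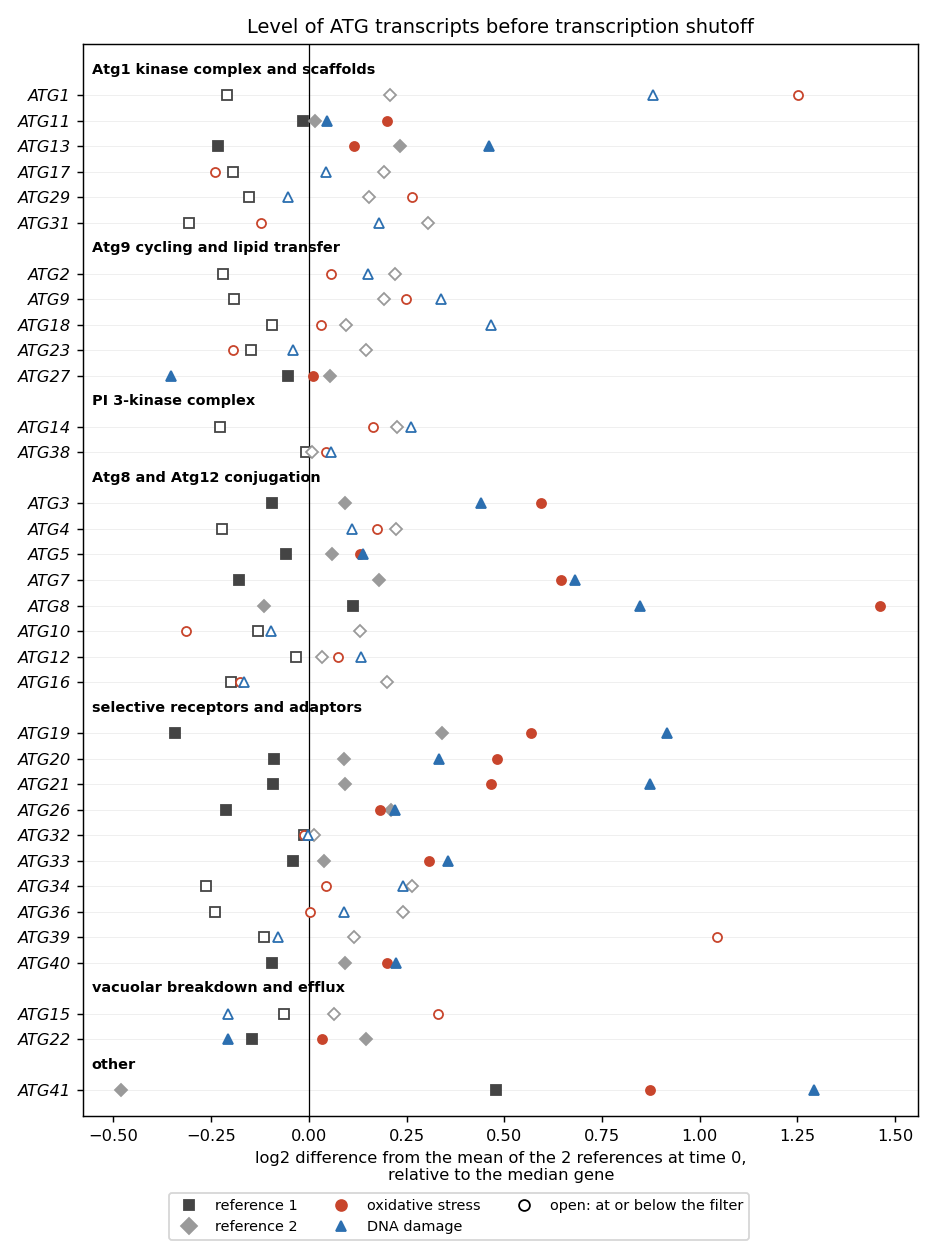
Level of each of the 34 ATG transcripts at time 0 as the log2 difference from the mean of the 2 references, relative to the median gene, grouped by role. Filled points are the 15 genes above the expression filter and open points the 19 dim genes; each point is 1 culture. ATG8 (1.46), ATG1 (1.25) and ATG39 (1.04) lie farthest right for oxidative stress, and ATG41 (1.29) for DNA damage.

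Of the 5 genes called under oxidative stress, ATG8, ATG7 and ATG3 belong to the conjugation machinery. ATG8 (YBL078C, chromosome II) encodes the ubiquitin-like protein that is joined to phosphatidylethanolamine and coats the forming membrane. Its 2 arrays at time 0 read 11.85 and 12.47 in reference 1 and 11.81 and 11.74 in reference 2, against 13.56 and 13.89 in the oxidative stress culture and 12.68 and 12.65 in the DNA damage culture. All 4 stressed arrays lay above all 4 reference arrays, and the oxidative stress arrays above the DNA damage arrays. Time 0 readings here and below are technical arrays as deposited, so the shift of the median gene is in them. The share of all genes with such gaps was not counted, so no result is read from a gap.

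The difference of ATG8 from the references under oxidative stress was 1.46 (standard error 0.29, a 2.76-fold level, adjusted p = 1.63e-07, limma). Against reference 1 it was 1.36, against reference 2 it was 1.56, and reference 1 exceeded reference 2 by 0.23. This call held on centred arrays (adjusted p = 0.011), after quantile normalization (adjusted p = 0.0486) and with either set of time 0 arrays left out (adjusted p = 0.0104 and 0.0146). Under DNA damage the difference was 0.85, with an adjusted p of 0.149. The direct comparison put ATG8 1.06 higher under oxidative stress than under DNA damage on values as deposited (standard error 0.33, adjusted p = 0.028), which is 0.57 relative to the median gene. It was the 1 of 15 members called there, where 7.98% of all genes tested were called higher and 0.333% lower. That call was lost with either set of time 0 arrays left out and on centred arrays (adjusted p = 0.446), where 0.154% of all genes were called higher (6 higher and 2 lower, against 311 and 13 as deposited).

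ATG7 (YHR171W, chromosome VIII) encodes the E1-like enzyme that activates both Atg8 and Atg12. Its time 0 arrays read 10.85 and 11.25 in reference 1 and 11.34 and 11.17 in reference 2, against 11.87 and 12.31 in the oxidative stress culture and 11.71 and 11.66 in the DNA damage culture. As deposited, the arrays of neither stressed culture overlapped those of the references. Relative to the median gene its difference was 0.65 under oxidative stress (adjusted p = 0.0138, 0.259 on centred arrays) and 0.68 under DNA damage (adjusted p = 0.305). The mean of ATG7 over the reference arrays was 11.03, below the filter, so it entered the tests through its stressed arrays.

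ATG3 (YNR007C, chromosome XIV) encodes the E2-like enzyme that passes Atg8 to the lipid. It read 11.20 and 11.77 in reference 1 and 11.61 and 11.43 in reference 2, against 12.21 and 12.57 in the oxidative stress culture and 11.83 and 11.76 in the DNA damage culture. The oxidative stress arrays lay above every reference array, whereas 1 DNA damage array lay within 0.01 of the highest reference array. The difference was 0.59 under oxidative stress (adjusted p = 0.0218, 0.269 on centred arrays) and 0.44 under DNA damage (adjusted p = 0.626).

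The remaining conjugation genes stood closer to the references. ATG5, the tested partner of Atg12 in the second conjugate, differed by 0.13 under oxidative stress and 0.14 under DNA damage, and neither passed. The dim members ATG4 (the protease that processes Atg8), ATG10 (the E2-like enzyme of Atg12), ATG12 and ATG16 (which binds the Atg12 and Atg5 conjugate) lay between −0.32 and 0.17 under oxidative stress and between −0.17 and 0.13 under DNA damage. Of the 8 conjugation genes 4 were tested, among them ATG7, which passed the filter through its stressed arrays, so no share called is read from this group. On centred arrays or with a time 0 array left out, ATG8 alone of them was called.

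Among receptors and accessory factors of selective autophagy, ATG19 was called. ATG19 (YOL082W, chromosome XV) encodes the receptor that carries Ape1 in the Cvt pathway. Its arrays read 11.79 and 12.25 in reference 1 and 12.61 and 12.49 in reference 2, against 12.98 and 13.31 in the oxidative stress culture and 13.04 and 13.07 in the DNA damage culture. Every stressed array lay above every reference array, but the references themselves differed by −0.68 relative to the median gene. The oxidative stress difference of 0.57 (adjusted p = 0.0279, 0.478 on centred arrays) is smaller than that. It was 0.92 against reference 1 and 0.21 against reference 2. Under DNA damage the difference was 0.92 relative to the median gene, with an adjusted p of 0.0978. On values as deposited, which the tests used, it was 0.77 there and 0.86 under oxidative stress.

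ATG34 (YOL083W), a related receptor gene, lies next to ATG19 in the RefSeq gene table (assembly R64). It was dim, and differed by 0.05 under oxidative stress and 0.24 under DNA damage. ATG21 (YPL100W, chromosome XVI) encodes a phosphoinositide-binding protein needed for efficient Atg8 lipidation in the Cvt pathway. Its arrays read 11.81 and 12.30 in reference 1 and 12.12 and 12.05 in reference 2, against 12.63 and 13.02 in the oxidative stress culture and 12.79 and 12.80 in the DNA damage culture. Both stressed cultures lay above all reference arrays. The differences were 0.47 under oxidative stress (adjusted p = 0.0626) and 0.87 under DNA damage (adjusted p = 0.124), and neither passed. ATG20 (YDL113C), a sorting nexin of the Cvt pathway, differed by 0.48 and 0.33 (adjusted p = 0.0566 and 0.786). Its reference arrays averaged 10.87, so it too passed the filter through stressed arrays.

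The other tested genes of this group did not pass in either stress. ATG33, a mitochondrial outer membrane protein needed for mitophagy, differed by 0.31 and 0.36, and ATG40, a receptor for the endoplasmic reticulum, by 0.20 and 0.22. ATG26, a sterol glucosyltransferase needed for peroxisome degradation in the methylotrophic yeast Komagataella phaffii (Pichia pastoris), differed by 0.18 and 0.22. The dim receptor genes ATG32 (mitochondria) and ATG36 (peroxisomes) stood at −0.01 and 0.003 under oxidative stress.

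ATG41 (YPL250C, chromosome XVI) encodes a protein that interacts with Atg9. It was called under both stresses, and its references were the least alike of the 15. The arrays read 13.08 and 13.92 in reference 1 and 12.47 and 12.30 in reference 2, against 13.95 and 14.27 in the oxidative stress culture and 14.09 and 14.08 in the DNA damage culture. The lowest stressed array lay 0.03 above the highest reference array. The difference was 0.87 under oxidative stress (standard error 0.29, adjusted p = 0.00157), less than the 0.96 between the references. It was 1.29 under DNA damage (adjusted p = 0.00423, 0.81 against reference 1 and 1.77 against reference 2). Neither call held on centred arrays (standard error 0.37, adjusted p = 0.343 and 0.17).

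The Atg1 kinase complex and its scaffolds had 2 tested members of 6, and neither was called. ATG13 (YPR185W), the regulatory subunit of the kinase complex, read 11.41 and 11.88 in reference 1 and 12.04 and 11.87 in reference 2, against 12.01 and 12.41 in the oxidative stress culture and 12.13 and 12.10 in the DNA damage culture. The oxidative stress arrays overlapped the references and the DNA damage arrays lay just above them. The differences were 0.12 and 0.46 (adjusted p = 0.406 and 0.601). ATG11, the scaffold of selective autophagy, differed by 0.20 and 0.05.

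ATG1 (YGL180W, chromosome VII), the kinase itself, was dim, with a mean below the filter over all arrays. Its time 0 arrays read 10.30 and 10.88 in reference 1 and 10.94 and 10.76 in reference 2, against 12.08 and 12.45 in the oxidative stress culture and 11.48 and 11.42 in the DNA damage culture. The oxidative stress arrays lay highest, then the DNA damage arrays, then the references, with no overlap, and of these arrays the stressed ones alone stood above the filter. Relative to the median tested gene the difference was 1.25 under oxidative stress and 0.88 under DNA damage.

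A test without the filter, over all 5449 genes, called 7 of the 34 members higher under oxidative stress, where 8.44% of genes were called higher. These were the same 5 genes, ATG1 (1.30 relative to the median of all genes, standard error 0.30, adjusted p = 9.46e-06) and ATG39 (1.09, adjusted p = 2.23e-04). It called 1 member, ATG41, under DNA damage, where 1.98% of genes were called higher. ATG1 stood at 0.93 there (adjusted p = 0.172).

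ATG39 (YLR312C, chromosome XII), a receptor for the nuclear envelope and perinuclear endoplasmic reticulum, was chosen for closer description after its values were seen. Its arrays read 10.09 and 10.50 in reference 1 and 10.45 and 10.29 in reference 2, against 11.51 and 11.83 in the oxidative stress culture and 10.10 and 10.11 in the DNA damage culture. The oxidative stress arrays stood above all 6 others, and the DNA damage arrays within the range of the references. Without the filter, its level was 1.13 higher under oxidative stress than under DNA damage (1.57 as deposited, standard error 0.34, adjusted p = 4.50e-04), where 5.03% of genes were called higher. In that comparison 2 members, ATG8 and ATG39, were called. At time 0 all but its oxidative stress values lay below the filter. Whether low signal flattened them was not tested, so the size of the fold is uncertain.

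**Figure D2:**
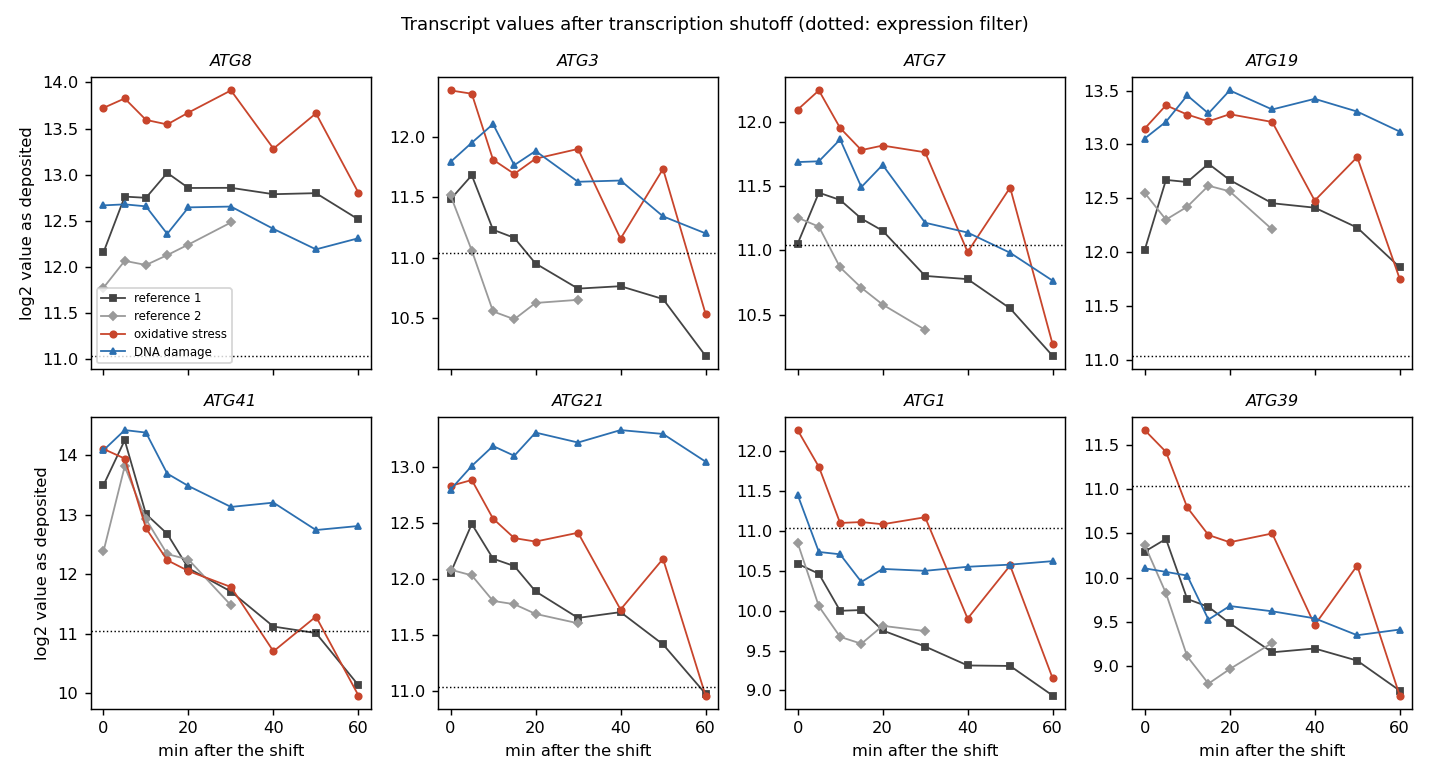
Values as deposited (log2, y axis) against min after the shift (x axis) for 8 ATG genes, 1 line per culture, with time 0 the mean of 2 arrays and other points 1 array. The dotted line is the expression filter of 11.04. ATG8 stays highest under oxidative stress from 0 to 60 min, and ATG21 lies highest under DNA damage from 5 min on. ATG1 and ATG39 lie below the filter in the references throughout; ATG1 falls below it by 5 min under DNA damage and from 40 min under oxidative stress, and ATG39 by 10 min under oxidative stress.

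No gene of Atg9 cycling, of the lipid kinase or of vacuolar breakdown was called by level, with or without the filter. ATG9 (YDL149W), the transmembrane protein of the founding vesicles, was dim. It read 10.48 and 10.86 in reference 1 and 10.97 and 10.83 in reference 2, against 11.13 and 11.52 in the oxidative stress culture and 11.01 and 10.94 in the DNA damage culture. The differences were 0.25 and 0.34, and neither passed without the filter (adjusted p = 0.326 and 0.791). ATG27, a membrane protein needed for Atg9 cycling, was the tested gene of this group. It stood at 0.01 under oxidative stress and −0.35 under DNA damage (adjusted p = 0.551 and 0.34), the lowest value among tested members in that culture. ATG18, a dim phosphoinositide-binding protein that works with Atg2, stood at 0.03 and 0.47, and its DNA damage arrays (11.42 and 11.44) lay above every reference array (10.90 to 11.28). Without the filter it did not pass under DNA damage (0.52, adjusted p = 0.62). ATG22, a vacuolar amino acid exporter, stood at 0.03 and −0.21, and the dim lipase gene ATG15 at 0.33 and −0.21.

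Over all 34 members, dim ones included, 28 stood above 0 relative to the median gene under oxidative stress and 25 under DNA damage, against 43.2% and 45.1% of all 5449 genes. Much of this sign count rests on reference 1. Reference 1 lay below reference 2 in 32 of the 34 genes, and ATG8 and ATG41 were the exceptions. It lay above reference 2 in 40.0% of all genes. Among genes at or below the filter it did so in 14.7%, and in 0 of the 19 dim members. Against reference 1 alone 31 members stood above 0 in each stress, where 46.8% and 50.5% of all genes did. Against reference 2 alone 18 did under oxidative stress and 19 under DNA damage, where 40.9% and 41.8% of all genes did. Above both references stood 18 under oxidative stress, against 30.7% of all genes, and 19 under DNA damage, against 34.4%. No test was made on these signs.

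The slope of log2 value on time over 0 to 30 min was used to describe decay. For the median tested gene it was −0.40 log2 per 10 min in reference 1 and −0.30 in reference 2, −0.29 in the oxidative stress culture and −0.32 in the DNA damage culture, giving half-lives of 25.2, 33.2, 34.4 and 30.8 min. Spike-in controls of bacterial RNA (18 probe sets above the filter) also had negative median slopes, from −0.09 to −0.06. That part was not taken off. The cDNA was primed on the poly(A) tail, so a slope describes polyadenylated transcript, and less RNA per cell cannot be told apart from a shorter tail. Slopes as deposited were above 0 in 3.87% of genes tested in reference 1 and 4.64% in reference 2. A slope is thus a net change, and the parts of remaining synthesis and array scaling in it were not tested. Slower or faster decay below means a slope above or below that of the median gene.

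In the unstressed references 6 of the 15 tested ATG transcripts decayed more slowly than the median gene and 1 faster, against 14.3% and 17.4% of all genes tested. ATG8, ATG40, ATG19, ATG33, ATG26 and ATG21 were the slow ones, 5 of them in the group of receptors and accessory factors, of which 6 were tested. The other tested one, ATG20, passed the filter through stressed arrays, so no share called is read from this group. With no filter ATG19, ATG26 and ATG21 were not called (adjusted p = 0.0588, 0.0544 and 0.0597, limma). ATG41 was the fast one. The median difference of the 15 from the median gene was 0.17 log2 per 10 min. The window was also moved to 5 to 30 min, which leaves out time 0 and the first minutes after the shift. There 0 of the 15 passed, and neither did any other gene (0% of all genes tested). An unadjusted p under 0.05 by limma was found for 4 of the 15, and all genes were not counted at that threshold. Those 4 kept their direction: ATG8 (0.39), ATG40 (0.30), ATG33 (0.25) and ATG41 (−0.63, where it was −0.29 from time 0).

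**Figure D3:**
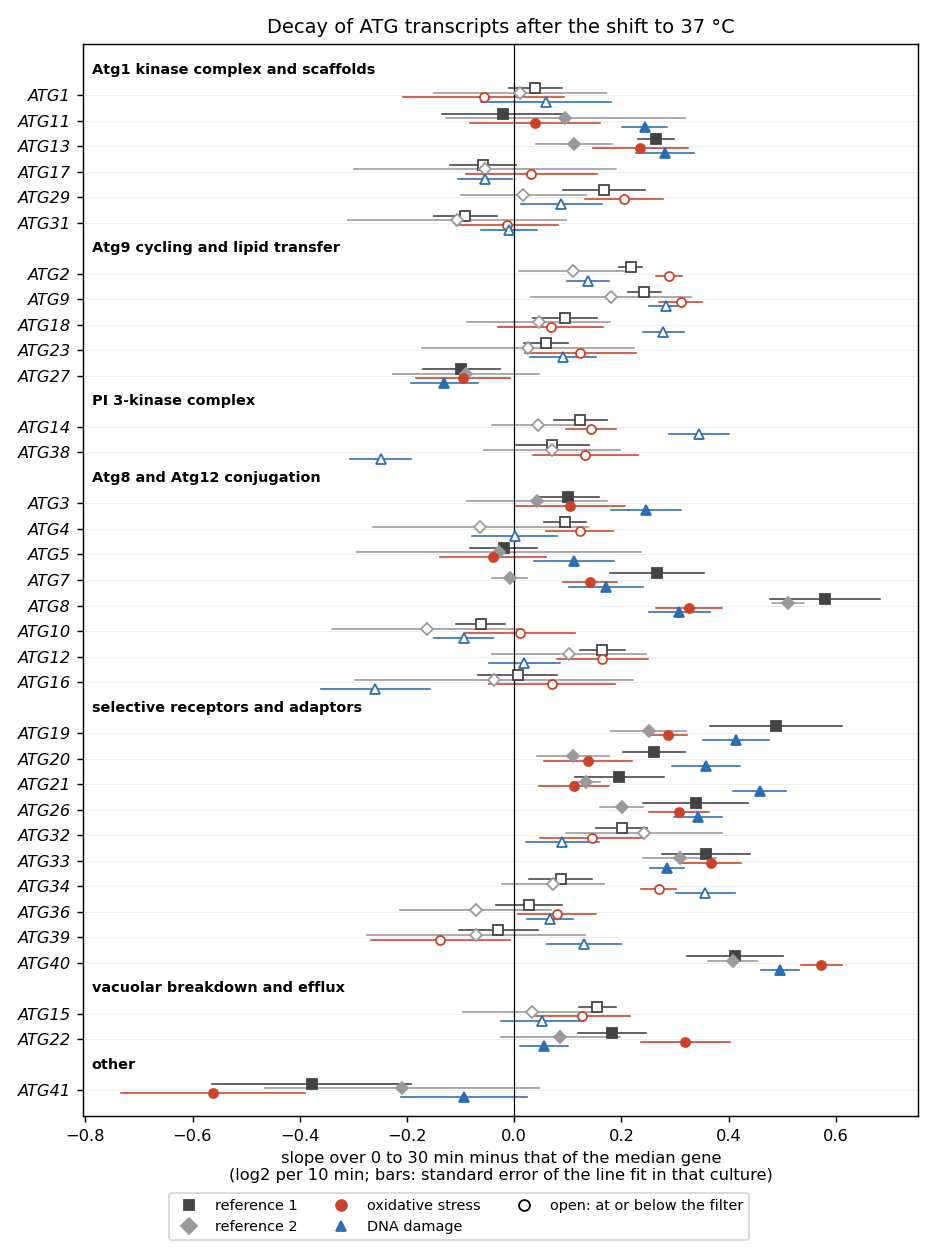
Slope over 0 to 30 min minus that of the median gene (log2 per 10 min, x axis) for each ATG transcript in each culture, grouped by role. Bars are the standard error of the line fit within 1 culture, and open points are dim genes. ATG8 and ATG40 lie to the right in all 4 cultures, and ATG41 lies to the left in all 4.

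ATG8 had the largest of these differences, 0.55 log2 per 10 min (standard error 0.043, adjusted p = 0.00684), and over 5 to 30 min it was 0.39 (adjusted p = 0.0861). Its values as deposited ended higher at 30 min than at time 0 in both references. Reference 1 read 12.16, 12.76, 12.75, 13.02, 12.86 and 12.86 at 0, 5, 10, 15, 20 and 30 min, and reference 2 read 11.78, 12.07, 12.02, 12.13, 12.24 and 12.48. The oxidative stress culture read 13.72, 13.83, 13.59, 13.54, 13.67 and 13.91, and the DNA damage culture 12.67, 12.68, 12.66, 12.36, 12.65 and 12.66.

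In slopes this was 0.18 and 0.21 log2 per 10 min in the references, 0.04 under oxidative stress and −0.02 under DNA damage. Relative to the median gene, ATG8 gained 1.89 and 1.76 in the references by 30 min, 1.11 under oxidative stress and 1.01 under DNA damage. Both stressed cultures, which began higher, gained less. The slope differences of −0.22 and −0.25 from the references were not called (adjusted p = 0.999 and 0.731).

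ATG40 (YOR152C, chromosome XV) was the 1 member whose slope as deposited was above 0 in all 4 cultures, which 1.56% of all genes showed. Its time 0 arrays read 10.80 and 11.26 in reference 1 and 11.10 and 11.02 in reference 2, against 11.33 and 11.75 in the oxidative stress culture and 11.09 and 11.16 in the DNA damage culture. At 30 min it read 11.15, 11.25, 12.44 and 11.66 in the same order of cultures. Its slopes were 0.02, 0.11, 0.28 and 0.17. The reference slope exceeded that of the median gene by 0.41 (standard error 0.040, adjusted p = 0.00822). ATG8 and ATG40 were the 2 of 34 members with slopes above 0 in both references, against 2.39% of all genes.

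ATG19 and ATG33 were nearly flat as deposited. The slopes of ATG19 were 0.09 and −0.05 in the references, −0.0037 with peroxide and 0.09 with MMS. They exceeded the median gene by 0.37 in the references (adjusted p = 0.0233). ATG33 (YLR356W, chromosome XII) read 12.41 and 12.85 at time 0 in reference 1 and 12.63 and 12.48 in reference 2, against 13.00 and 13.38 in the oxidative stress culture and 12.74 and 12.86 in the DNA damage culture. Its slopes were −0.04, 0.01, 0.08 and −0.04, above the median gene by 0.33 in the references (adjusted p = 0.011).

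ATG26 (YLR189C, chromosome XII) read 11.86 and 12.33 at time 0 in reference 1 and 12.43 and 12.29 in reference 2, against 12.52 and 12.89 in the oxidative stress culture and 12.26 and 12.34 in the DNA damage culture. As deposited, the oxidative stress arrays lay above every reference array, but relative to the median gene the culture stood at −0.05 against reference 2. Its slopes were −0.06, −0.10, 0.02 and 0.02, above the median gene by 0.27 in the references (adjusted p = 0.0249). ATG21 passed with the smallest difference, 0.17 (adjusted p = 0.0474).

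**Figure D4:**
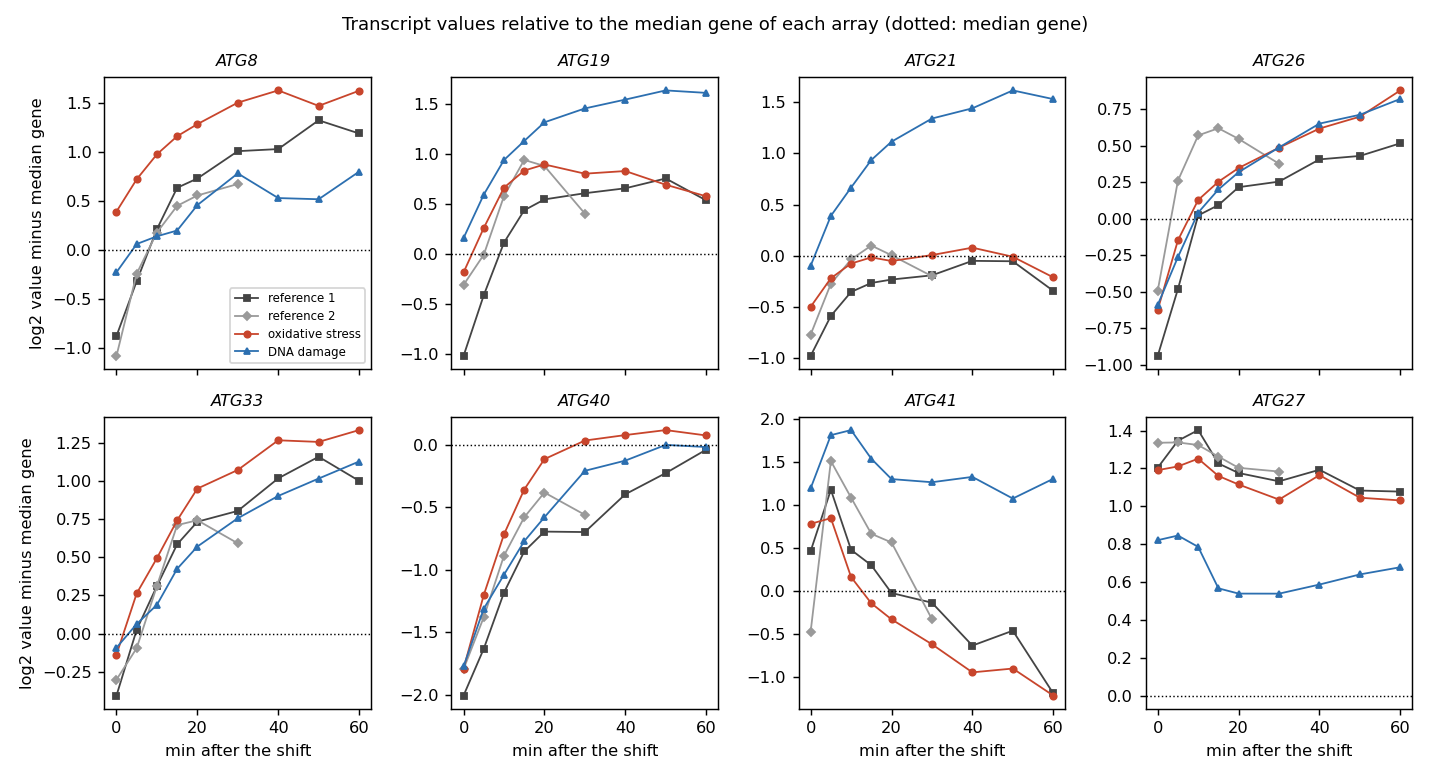
Values minus the median tested gene of the same array (log2, y axis) against min after the shift (x axis) for 8 ATG genes, 1 line per culture. The dotted line is the median gene. ATG8 goes from −0.88 to 1.01 in reference 1 by 30 min, ATG21 from −0.10 to 1.34 under DNA damage, and ATG41 is highest at 5 or 10 min and then declines, while ATG27 runs nearly parallel to the median gene.

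ATG41 went the other way. In reference 1 it read 13.50 at time 0, 14.25 at 5 min, 13.01 at 10 min, 12.68 at 15 min, 12.10 at 20 min and 11.71 at 30 min, and 10.13 at 60 min. Reference 2 read 12.38, 13.81, 12.92, 12.34, 12.25 and 11.48 over the same first 30 min. Both references were thus highest at 5 min, 0.76 and 1.43 above time 0. Under oxidative stress the value went from 14.11 to 13.95 at 5 min and 11.79 at 30 min, and under DNA damage from 14.08 to 14.42 and 13.13. By 60 min the oxidative stress culture was at 9.96 and the DNA damage culture at 12.81.

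Over 0 to 30 min ATG41 had slopes of −0.77 and −0.51 in the references, −0.85 in the oxidative stress culture and −0.42 in the DNA damage culture. These are half-lives of 12.9, 19.6, 11.7 and 24.0 min. In the references it lay 0.29 log2 per 10 min below the median gene (standard error 0.056, adjusted p = 0.025). From 5 min on, the half-lives were 10.5, 11.5, 12.7 and 17.7 min, with the DNA damage culture the longest. The slope difference between oxidative stress and DNA damage was −0.46 relative to the median gene and −0.43 as deposited (standard error 0.18, unadjusted p = 0.0156), which did not pass (adjusted p = 0.266).

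Decay under stress differed from the references in 0 of the 15 members by limma. For oxidative stress, 0.795% of all genes tested were called in either direction and 0 of the 15 had an unadjusted p under 0.05. For DNA damage it was 1.82%, with 1 of the 15 below that value, ATG21. Between the stresses it was 2.1%, with 1 of the 15, ATG41. Those percentages are of adjusted calls. At the unadjusted threshold by limma stood 158, 407 and 397 of all 3899 genes tested in the same order of comparisons. A difference in slope had a standard error of 0.16 against the references and 0.18 between the stresses. Missing the threshold therefore leaves room for sizeable differences, and does not show that decay was alike.

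Among the 15 tested members, ATG21 had the largest slope difference from the references under DNA damage. It read 12.79 at time 0, 13.01 at 5 min, 13.18 at 10 min, 13.10 at 15 min, 13.30 at 20 min, 13.21 at 30 min and 13.04 at 60 min. Over 0 to 30 min reference 1 went from 12.05 to 11.65, reference 2 from 12.08 to 11.61 and oxidative stress from 12.83 to 12.41. The slopes were −0.20, −0.17 and −0.18 in those cultures and 0.13 under DNA damage. The difference from the references was 0.28 relative to the median gene and 0.32 as deposited (standard error 0.16, unadjusted p = 0.0411, adjusted p = 0.439). Without the filter it was 0.32, and the dim ATG34 (0.30), ATG14 (0.28) and ATG38 (−0.30) were near it in size. None of them was called (adjusted p = 0.431 to 0.531, limma). By 60 min the dim ATG38 and ATG16 had changed by −1.88 and −2.09 relative to the median gene under DNA damage. In reference 1 they had changed by 0.46 and 0.18.

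Relative to the median gene, 11 of the 15 slope differences under DNA damage were above 0 and 4 below, and none passed. Of all 3899 genes tested, 1949 lay above 0. After ATG21 the largest above 0 were ATG11 (0.20), ATG41 (0.19), ATG3 (0.17) and ATG20 (0.16). Below 0 lay ATG8 (−0.25), ATG33 (−0.06) and ATG27 (−0.045), as well as ATG22. The slope difference of ATG22 was 0.18 under oxidative stress and −0.09 under DNA damage. ATG13, with slopes of −0.13, −0.19, −0.06 and −0.04, missed the threshold for slow decay in the references (0.19, adjusted p = 0.0586). ATG27 decayed slightly faster than the median gene in every culture, with half-lives of 20.2, 25.6, 25.9 and 22.0 min, and also did not pass (−0.09, adjusted p = 0.139).

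Of all 34 members, 20 had a slope above the median gene in all 4 cultures, against 25.1% of all genes. Those below it in all 4 were ATG27, ATG41 and ATG31, a subunit of the Atg17 scaffold, against 28.2% of all genes. For the 19 dim members, flattening of low array values could hold slopes near 0, and its part was not tested. ATG1 had slopes of −0.36, −0.29, −0.35 and −0.26, a half-life of 28.0 to 37.8 min, and ATG9 of −0.15, −0.12, 0.02 and −0.04. The adjacent receptor genes ATG19 and ATG34 differed in the references, where the slopes of ATG34 were −0.31 and −0.23. That difference was not tested.

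Partners of the pathway were taken as a list of 50 genes without an ATG symbol: lipid kinase subunits, fusion factors, Cvt cargo, vacuolar proteases, nutrient-signalling and regulatory genes. Of these 48 were found by symbol and 43 tested. Under oxidative stress 6 of the 43 were higher and 0 lower, against the 11.7% and 0.769% of all genes given above. The median difference of the 43 was 0.0995 under oxidative stress and 0.116 under DNA damage.

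APE1 (YKL103C), the aminopeptidase that is the main Cvt cargo and binds Atg19, moved most. It stood at 12.61 and 12.72 in the references, 15.72 under oxidative stress and 14.28 under DNA damage. Relative to the median gene the differences were 2.76 (6.76-fold, adjusted p = 1.14e-19) and 1.76 (3.39-fold, adjusted p = 4.50e-06), and oxidative stress exceeded DNA damage by 0.95 (1.44 as deposited, adjusted p = 0.00117). It was the 1 partner called under DNA damage.

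YAP1, the transcription factor of the peroxide response, stood at 13.16 and 13.06 in the references, 15.10 under oxidative stress and 13.87 under DNA damage. It was 1.70 higher under oxidative stress (adjusted p = 2.06e-09) and 0.74 higher there than under DNA damage (1.22 as deposited, adjusted p = 0.00762). The other 4 called under oxidative stress, by limma on values as deposited, were NVJ1, PRB1, SNX4 and FIS1. NVJ1, which joins nucleus and vacuole, stood at 0.76 (adjusted p = 0.0043), and the vacuolar protease gene PRB1 at 0.73 (adjusted p = 0.00584). SNX4, the sorting nexin partner of Atg20, stood at 0.67 (adjusted p = 0.0108), and FIS1, of organelle fission, at 0.50 (adjusted p = 0.0494). Partner calls on centred arrays or with a time 0 array left out are not given here. In those settings ATG41 (0.87), ATG7 (0.65), ATG3 (0.59) and ATG19 (0.57) lost their calls.

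**Figure D5:**
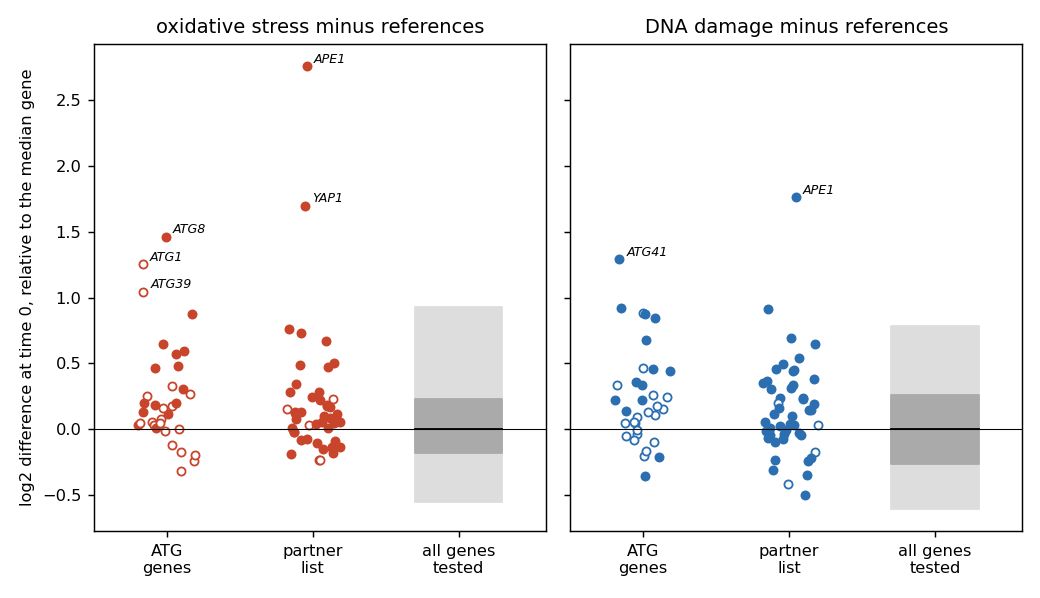
Log2 difference at time 0 from the mean of the 2 references, relative to the median gene (y axis), for the ATG genes, the partner list and all genes tested, under oxidative stress (left) and DNA damage (right). Points are genes, open where dim; the dark band runs from the 0.25 to the 0.75 quantile of all genes tested and the light band from 0.05 to 0.95. ATG8 at 1.46 and APE1 at 2.76 lie above the light band on the left, and ATG41 at 1.29 and APE1 at 1.76 on the right.

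In the references 11 of the 43 tested partners decayed more slowly than the median gene and 0 faster, against 14.3% and 17.4% of all genes. The 3 cargo enzymes of the Cvt pathway were among them: APE1 (0.61 log2 per 10 min above the median gene, adjusted p = 0.00637), the mannosidase gene AMS1 (0.33, adjusted p = 0.0127) and APE4 (0.22, adjusted p = 0.0273). The vacuolar peptidase genes CPS1 (0.26), PRB1 (0.19) and PRC1 (0.18) were called as well, and so were VPS34 (0.24) and VPS30 (0.16) of the lipid kinase complex. VTI1 of vesicle fusion (0.21), and GCN2 (0.22) and NPR2 (0.16) of amino acid signalling, completed the 11. No partner's slope differed between cultures by limma, with 3, 4 and 3 of 43 at an unadjusted p under 0.05 for the 3 slope comparisons in the order above. Of all 3899 genes tested, 158, 407 and 397 stood at that threshold. APE1 had slopes of 0.25 and 0.28 in the references, −0.15 under oxidative stress and 0.14 under DNA damage, and like ATG8 its value as deposited did not fall in the references.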

How the data were processed

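Per the labels' protocols, cDNA was primed with poly(T) and the cRNA carried biotin. The deposited values are log2 signals of each probe set that the authors obtained with RMA (submitters' processing notes). Which RMA version and which scaling between arrays they used is not given in the sources used here. All 37 columns hold 5900 probe sets with values from 3.69 to 17.5 and array medians from 10.5 to 12.9. The platform annotation named 1 gene for 5498 probe sets, several for 0 and none for 402; 12 symbols were updated through the RefSeq gene table (assembly R64), which gave 5449 genes. No build is named, so no coordinates are given, and no sequences were used.

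Each culture gave 1 level per gene (mean of 2 arrays at time 0) and 1 least-squares slope over 0 to 30 min (6 time points). The 3899 genes above the filter entered lmFit and eBayes of limma 3.58.1 (R 4.3.3), with 1 value per gene and culture and Benjamini-Hochberg adjustment at 0.05. There were 7 comparisons: each stress with the references and the 2 stresses with each other, for level and for slope, and the reference slope with the median gene. There was 1 residual degree of freedom; prior degrees of freedom were 235 for levels, infinite for slopes and 3.51 for reference slopes. Nothing in the labels says the references are independent cultures of separate days, and the p-values rest on the spread between these 2 alone. For differences between cultures limma pooled that spread over all genes tested. A gene's own spread between the references thus counted for little in levels and for nothing in slopes between cultures. The labels give no batch. The fits were tested on simulated data with noise of the same spread for every gene and no offset between arrays or cultures. That test therefore tells nothing of array scaling or of spread that differs between genes. Tables and figures used Python 3.11.15, numpy 2.4.6, pandas 2.3.3 and matplotlib 3.10.9.

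Full values are given for members called in at least 1 comparison and for ATG1, ATG8, ATG9, ATG13 and ATG19, and for partners called. The members, roles and partner list were chosen with earlier results of these data known. SEA2 and SEA3 of the partner list did not match by symbol. Alternatives were array centring, quantile normalization, no filter, either time 0 array left out, the mean of all probe sets and slopes over 5 to 30 min.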

Additional observations from a re-analysis of the deposited data

Results flagged for a closer look

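The level of ATG8 at time 0 differed between the stresses by a direct test: on values as deposited it was 1.06 (log2) higher in the oxidative stress culture than in the DNA damage culture (limma, adjusted p = 0.028, 1 culture each), which is 0.57 relative to the median gene. The difference was 1.46 from the references under oxidative stress and 0.85 under DNA damage. On centred arrays the adjusted p of the direct comparison was 0.446, and the part of array scaling in this result was not tested further.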

How the results depend on the processing

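The number of ATG genes called higher under oxidative stress was 5. It was 1 on centred arrays, 1 after quantile normalization, 7 with no filter and 1 to 1 with either time 0 array left out, and the 1 was ATG8 in each. The 1 call under DNA damage became 0 on centred arrays, 0 after quantile normalization and 0 to 0 with either time 0 array left out. The 1 call of oxidative stress against DNA damage became 0, 0, 2 with no filter, and 0 to 0. Over all genes, quantile normalization gave 106 higher and 18 lower under oxidative stress and 32 and 3 under DNA damage, and the prior degrees of freedom for levels fell from 235 to 6.96 on centred arrays. The 6 slow reference slopes became 0 over 5 to 30 min, where 0 of all 3899 genes passed, and 5 to 8 with a time 0 array left out. With no filter 5 members were slow: ATG8, ATG33, ATG40 and the dim ATG32 and ATG9 (adjusted p = 0.0478 and 0.0499), while ATG19, ATG26 and ATG21 were not called (adjusted p = 0.0588, 0.0544 and 0.0597). The 1 fast slope became 0 over 5 to 30 min and 0 with no filter. ATG13 and ATG20 passed for slow decay with the first time 0 array left out (adjusted p = 0.0403 and 0.0435), and ATG20 after quantile normalization (adjusted p = 0.0481). Over the 15 tested members, 25 alternative values changed sign, and the main value was uncalled in each. After quantile normalization the levels between the stresses turned to 0.0845 (ATG5), 0.0714 (ATG7), 0.0411 (ATG26) and 0.0403 (ATG40), the level of ATG11 under DNA damage to −0.0634, and the slopes under oxidative stress to −0.0107 (ATG7) and −0.0086 (ATG11). With no filter, slopes under oxidative stress turned to −0.0128 (ATG7) and −0.0247 (ATG11), and slopes between the stresses to −0.0214 (ATG8) and −0.0044 (ATG27). Without the first time 0 array, levels under oxidative stress turned to −0.0392 (ATG22) and −0.0333 (ATG27), and slopes there to −0.0026 (ATG7), −0.0019 (ATG11) and 0.0083 (ATG27). Over 5 to 30 min, slopes under oxidative stress turned to −0.0578 (ATG11), −0.0119 (ATG13), 0.0022 (ATG21), 0.0080 (ATG27) and 0.0565 (ATG41), that of ATG33 under DNA damage to 0.0155, that of ATG8 between the stresses to −0.0083, and reference slopes to 0.0835 (ATG5) and −0.0073 (ATG7). Causes of these changes were not tested. The mean of all probe sets gave the same counts, since each ATG gene has 1. No paired analysis was possible because each stress has 1 culture and the labels pair none with a reference. Signal near the filter limits the 19 dim genes, and the 2 references limit every p-value.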
